A study of Oryctolagus cuniculus with 6 samples.

Results

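MiR-374a and miR-545 are hairpin microRNAs (miRNAs) that mammals carry side by side on the X chromosome, and each is cut into a 5p and a 3p mature strand. The 4 strands, miR-374a-5p, miR-374a-3p, miR-545-5p and miR-545-3p, were taken by name from a table of 577 rabbit miRNAs, where all 4 were present. Small RNA sequencing measured them in extracellular vesicles, small membrane sacs shed by cells, which had been isolated from the seminal plasma of rabbits. California x New Zealand white bucks aged 10 to 12 months were screened by semen quality, and of 14 bucks the groups labelled Fertile (3 with good semen) and Sub-fertile (3 with poor semen) were formed. No treatment or altered genotype is given for either group, and each library is a biological replicate made from 2.5 mL of seminal plasma (n = 3 per group). The label follows semen quality, and no record of fertility was used. The sources used here do not say whether a library holds the ejaculates of 1 buck or of several.

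In human and mouse, miR-374a and miR-545 are processed from FTX, a long noncoding RNA made in the X inactivation centre, whose mouse form acts on Xist. The same transcript yields miR-374b and miR-421. As a hairpin is cut, the strand that is loaded into an Argonaute protein is kept and the opposite strand is mostly degraded. The ratio of the arms in a cell depends in part on this step. Argonaute loading was not measured here, and the arm ratios below are those found in vesicles. In human, miR-374a-5p and miR-374b-5p share the seed that pairs with target transcripts. In human breast cancer cells miR-374a has been reported to repress inhibitors of Wnt signalling, and in human lung cancer cells miR-545 has been reported to repress regulators of the cell cycle.

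In the RefSeq annotation of the mOryCun1.1 rabbit assembly, used for names and gene order only because the study had another build, the genes run MIR421, MIR374B, MIR545 and MIR374A on chromosome X. MIR545 and MIR374A lie within the bounds of LOC103345230, an uncharacterised lncRNA, whereas MIR421 and MIR374B lie outside it. The next annotated genes are LOC138847672 on the MIR421 side and ZCCHC13 on the MIR374A side.

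Values are the deposited scaled CPM (counts divided by library depth and by a scaling factor of each library), from which whole counts were recovered. Recovered counts per library ran from 453675 to 772619 in Fertile and from 129387 to 636929 in Sub-fertile vesicles, so that 1 count was worth from 1.33 units in Fertile replicate 1 to 6.24 units in Sub-fertile replicate 1. Sub-fertile replicate 1, the shallowest library, differed most from its group, with a chi-square per degree of freedom of 64.6 and 129.4 against the other Sub-fertile libraries and of 20.3 to 30.4 within the Fertile group. Among the marker miRNAs of the tract, 3 of 6 epithelial ones were in the table and summed to at least 79742 in every library, and all 6 germ cell and testis ones were detected. Of 3 erythroid markers miR-144-3p had 0 counts in every library, and of 4 striated muscle markers miR-133a-3p and miR-133b-3p had 0. Intervals on single libraries cover counting error only.

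The cluster was a minor part of the vesicle cargo, and most of it was a single strand. The 4 strands together took 246, 129 and 145 counts in Fertile replicates 1 to 3 and 44, 82 and 322 in Sub-fertile replicates 1 to 3, which was 0.0241% to 0.0506% of a library. MiR-374a-5p alone made up 62.8% to 77.6% of this sum. By mean level it ranked 107th of 577, ahead of miR-545-3p at 158th, miR-545-5p at 191st and miR-374a-3p at 210th. All 4 passed the filter for testing, 10 units or more in 3 or more libraries, which left 234 miRNAs. MiR-545-5p stood at 4.63 in Fertile replicate 3, so it passed only with Sub-fertile libraries, where it was higher, counted in.

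**Figure D1:**
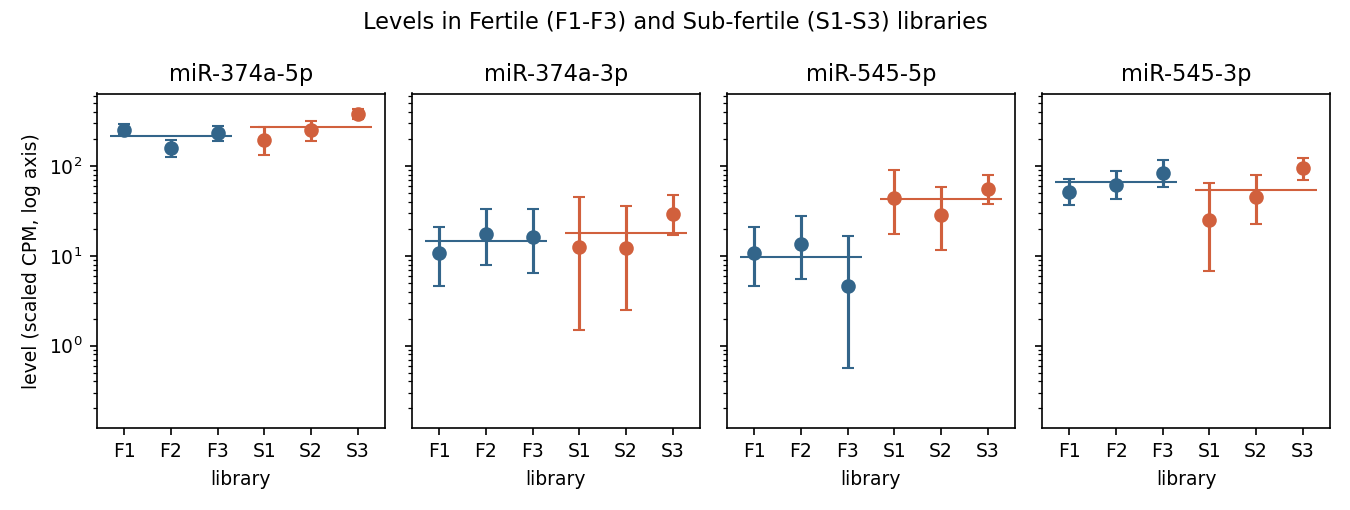
Level of each strand (scaled CPM, log axis) in the 3 Fertile (F1 to F3, blue) and 3 Sub-fertile (S1 to S3, orange) libraries. Points are libraries, bars are 95% Poisson intervals on the recovered counts and horizontal lines are group means. For miR-545-5p the 3 Sub-fertile libraries lie above the 3 Fertile ones, and for the other 3 strands the groups overlap.

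MiR-374a-5p, the main strand of its hairpin, stood at 254.6, 157.7 and 231.7 in Fertile replicates 1 to 3. In Sub-fertile replicates 1 to 3 it stood at 193.6, 249.2 and 381.1. The groups overlapped, with the highest value in Sub-fertile replicate 3 and the lowest in Fertile replicate 2. It was the best measured of the 4 strands, on 31 to 219 counts per library. Its variance between libraries of a group was 6.73 times that of counting alone in Fertile and 9.33 times in Sub-fertile.

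MiR-374a-3p, the strand opposite to it, was low throughout. It stood at 10.7, 17.5 and 16.2 in the Fertile libraries and at 12.5, 12.3 and 29.6 in the Sub-fertile ones, on 2 to 17 counts. The highest value again came from Sub-fertile replicate 3, and the groups overlapped. Its spread was near that of counting alone, with a variance ratio of 0.593 in Fertile and 1.57 in Sub-fertile. These ratios rest on 24 and 22 counts and do not show that the libraries varied little beyond counting.

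MiR-545-3p, the more abundant strand of its hairpin in 5 of 6 libraries, stood at 52.0, 62.3 and 83.4 in Fertile and at 25.0, 44.9 and 94.0 in Sub-fertile vesicles. The Sub-fertile libraries included both the lowest and the highest value of the 6, and the lowest rested on 4 counts.

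MiR-545-5p stood at 10.7, 13.6 and 4.63 in Fertile and at 43.7, 28.6 and 55.7 in Sub-fertile vesicles. The lowest Sub-fertile library was thus above the highest Fertile one. These values rested on 8, 7 and 2 counts in Fertile and on 7, 7 and 32 counts in Sub-fertile replicates 1 to 3. The 95% counting interval of Sub-fertile replicate 3 ran from 38.1 to 78.6 and lay above all 3 Fertile intervals, the highest of which ended at 28.1. The intervals of Sub-fertile replicate 1, from 17.6 to 90.1, and replicate 2, from 11.5 to 58.9, overlapped Fertile intervals. Within each group the spread was close to counting error (variance ratio 0.973 in Fertile and 1.36 in Sub-fertile). With 17 counts in Fertile and 46 in Sub-fertile, such ratios do not show that the libraries of a group varied little beyond counting.

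Ordered by mean level together with the other strands of the neighbourhood, miR-374a-5p came first and miR-374b-5p second, followed by miR-545-3p, miR-421-3p, miR-545-5p, miR-374a-3p and miR-374b-3p. Mean levels over the 6 libraries were 244.6 ± 76.3, 115.5 ± 22.2, 60.3 ± 25.4, 56.9 ± 22.2, 26.2 ± 20.2, 16.5 ± 6.93 and 6.52 ± 4.34 in that order (SD, n = 6). MiR-374a-5p lay above miR-374b-5p, and miR-374b-5p above miR-545-3p, in 6 of 6 libraries. MiR-545-3p and miR-421-3p did not differ beyond their spread, with a log2 difference of 0.06 ± 0.49 (SD, n = 6) with miR-545-3p higher in 3 libraries, miR-421-3p higher in 2 and a tie at 4 counts in Sub-fertile replicate 1. MiR-545-5p and miR-374a-3p had a log2 difference of 0.30 ± 1.21 (SD, n = 6), with miR-545-5p higher in 3 of 3 Sub-fertile and 0 of 3 Fertile libraries. MiR-374b-3p had 0 to 7 counts and did not pass the filter, and miR-421-5p had 0 counts in every library, which by the limit of 3 counts per library allows up to 18.7 units in the shallowest.

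In ratios taken within a library its depth scaling cancels, apart from the 1 unit added before the log, and the ratios were tested over all 6 libraries, without use of the groups. In miR-374a the 5p strand was 14.3-fold above the 3p strand, a mean log2 ratio of 3.84 ± 0.48 (SD, n = 6), in 6 of 6 libraries (two-sided exact sign-flip permutation p = 0.0312, adjusted over 4 ratios 0.0417). Levels of miR-374a-5p were 11.6-fold those of miR-545-5p, with a mean log2 ratio of 3.54 ± 1.19 (SD, n = 6; 6 of 6 libraries, exact permutation p = 0.0312, adjusted 0.0417). This pooled ratio holds groups that did not overlap, with a mean log2 ratio of 4.42 ± 0.96 over the Fertile libraries and 2.65 ± 0.49 over the Sub-fertile ones (SD, n = 3 each). Its p therefore bears on direction only, not on a ratio common to the groups. MiR-545-5p was also known from the contrast between the groups before the ratios were named. The p of this ratio and that of the miR-545 arms are thus no independent support. Levels of miR-374a-5p were 2.06-fold those of miR-374b-5p, with a mean log2 ratio of 1.04 ± 0.45 (SD, n = 6; 6 of 6 libraries, exact permutation p = 0.0312, adjusted 0.0417). These strands are near-identical in human, and the sources used here do not say how reads were shared out between them. A p of 0.0312 is the smallest that 6 libraries can give. In miR-545 the 5p strand was lower than the 3p strand in 5 of 6 libraries, with a mean log2 ratio of -1.47 ± 1.62 (SD, n = 6), which did not pass (exact permutation p = 0.125, adjusted 0.125).

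The arm shares of each library are given next. The 5p strand of miR-374a took 96.0%, 90.0% and 93.5% of the counts of both arms in Fertile replicates 1 to 3. In Sub-fertile replicates 1 to 3 it took 93.9%, 95.3% and 92.8%. The shares of the groups overlapped, with means of 93.1% ± 3.00 (Fertile) and 94.0% ± 1.26 (Sub-fertile; SD, n = 3 each). The related hairpin miR-374b was also mostly 5p, with means of 95.1% ± 4.50 (Fertile) and 93.5% ± 3.92 (Sub-fertile; SD, n = 3 each).

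In miR-545 the 5p strand took 8 of 47 counts in Fertile replicate 1, or 17.0% (exact 95% binomial interval 7.65% to 30.8%). It took 7 of 39 in replicate 2, or 17.9% (7.54% to 33.5%), and 2 of 38 in replicate 3, or 5.26% (0.644% to 17.7%). The 3p strand was the major arm in each Fertile library. In Sub-fertile vesicles the 5p strand took 7 of 11 counts in replicate 1, or 63.6% (30.8% to 89.1%), 7 of 18 in replicate 2, or 38.9% (17.3% to 64.3%), and 32 of 86 in replicate 3, or 37.2% (27.0% to 48.3%). All 3 Sub-fertile shares were above all 3 Fertile ones, and in Sub-fertile replicate 1 the 5p strand was the more abundant. The mean share was 13.4% ± 7.07 over the Fertile libraries and 46.6% ± 14.8 over the Sub-fertile ones (SD, n = 3 each). Single libraries were not all resolved by their counts, since the intervals of all 3 Sub-fertile libraries overlapped that of Fertile replicate 2.

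**Figure D2:**
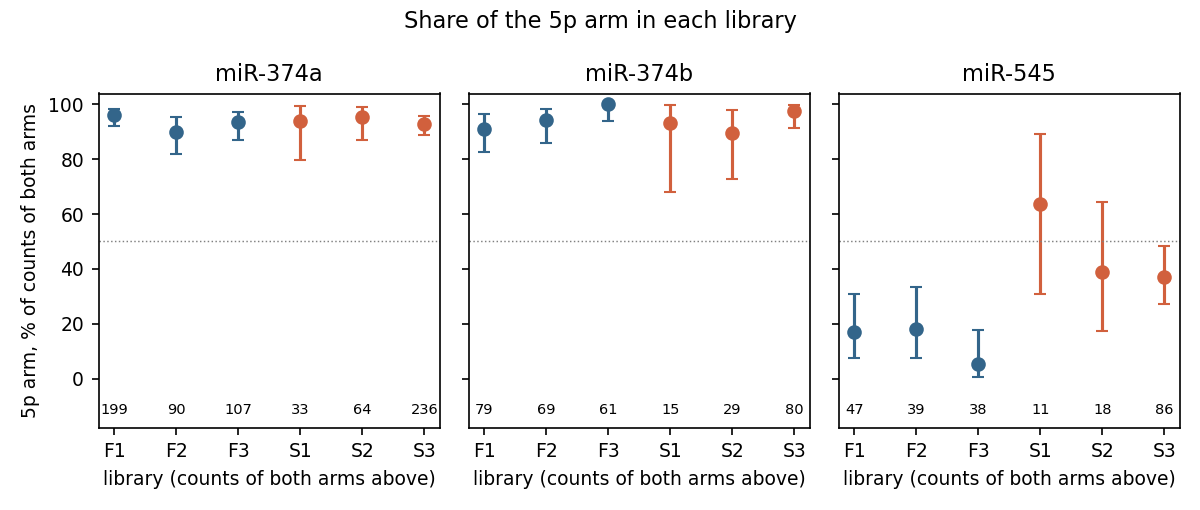
Share of the 5p strand among the counts of both strands (%) for miR-374a, miR-374b and miR-545 in each Fertile (F1 to F3, blue) and Sub-fertile (S1 to S3, orange) library, with exact 95% binomial intervals. The numbers along the bottom are the counts of both strands, and the dotted line marks equal arms. For miR-545 the Fertile shares run from 5.26% to 17.9% and the Sub-fertile ones from 37.2% to 63.6%, while miR-374a stays at or above 90.0% in all 6 libraries.

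The sum of both arms is given beside the share. In miR-545 the sum held the 3p strand, the major arm in Fertile libraries, whose levels overlapped between the groups. An overlap of the sum therefore does not show an unchanged total. For miR-545 the arms summed to 62.6, 75.9 and 88.0 in Fertile and to 68.7, 73.5 and 149.6 in Sub-fertile replicates 1 to 3, and the groups overlapped. The group means of this sum were 75.5 ± 12.7 and 97.3 ± 45.4 (SD, n = 3 each). For miR-374a the corresponding means were 229.5 ± 47.8 and 292.7 ± 105.8 (SD, n = 3 each), also with overlap.

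The cluster was taken to have been selected on the contrast of Sub-fertile with Fertile in these same libraries, since miR-545-5p was already known from it to be among the upward changes with the smallest p. The strands were named with that result known, and which value led to the choice is not recorded. The contrast between the groups is therefore given as a description with no test for the 4 strands. Changes are Sub-fertile minus Fertile on the log2(value + 1) scale, fitted with limma over all 234 miRNAs, a scale that understates changes of low miRNAs. MiR-545-5p went from a mean of 9.64 ± 4.58 to 42.7 ± 13.6 (SD, n = 3 each), 4.43-fold, with a log2 change of 2.10 (SE 0.61). Larger changes in size were found in 5 of the 233 other tested miRNAs. In vesicles as a bulk sample, more vesicles that carry a miRNA and more copies per vesicle cannot be told apart.

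MiR-545-3p, from the same hairpin, went from 65.9 ± 16.0 to 54.6 ± 35.5 (SD, n = 3 each), with a log2 change of -0.44 (SE 0.52). Without Sub-fertile replicate 1 this change was 0.01 (SE 0.43), so its sign rested on that library. MiR-374a-5p went from 214.7 ± 50.7 to 274.6 ± 96.3 (SD, n = 3 each), with a log2 change of 0.33 (SE 0.33). MiR-374a-3p went from 14.8 ± 3.64 to 18.1 ± 9.94 (SD, n = 3 each), with a log2 change of 0.19 (SE 0.64). Its sign turned without Fertile replicate 1 (-0.02, SE 0.76) and without Sub-fertile replicate 3 (-0.21, SE 0.70).

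Among the 234 miRNAs tested, 8, or 3.42%, had a Benjamini-Hochberg adjusted p under 0.05 in limma, a share given as background for the strands, whose own calls are left out for the reason above. An unadjusted p under 0.05 was reached by 45 miRNAs, and the edgeR test on recovered counts also called 8. The groups did not overlap for 1 of the 4 strands, miR-545-5p, against 25.6% of all tested miRNAs in either direction and 9.40% with Sub-fertile above. Without Sub-fertile replicate 1, 41 miRNAs passed, and the log2 change of miR-545-5p was 2.05 (SE 0.69). Of the other miRNAs that FTX yields in human and mouse, 2 strands were tested and neither passed. The log2 change of miR-374b-5p was -0.15 (SE 0.32). That of miR-421-3p, which has been reported to repress the DNA damage kinase ATM in human cells, was 0.06 (SE 0.52).

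**Figure D3:**
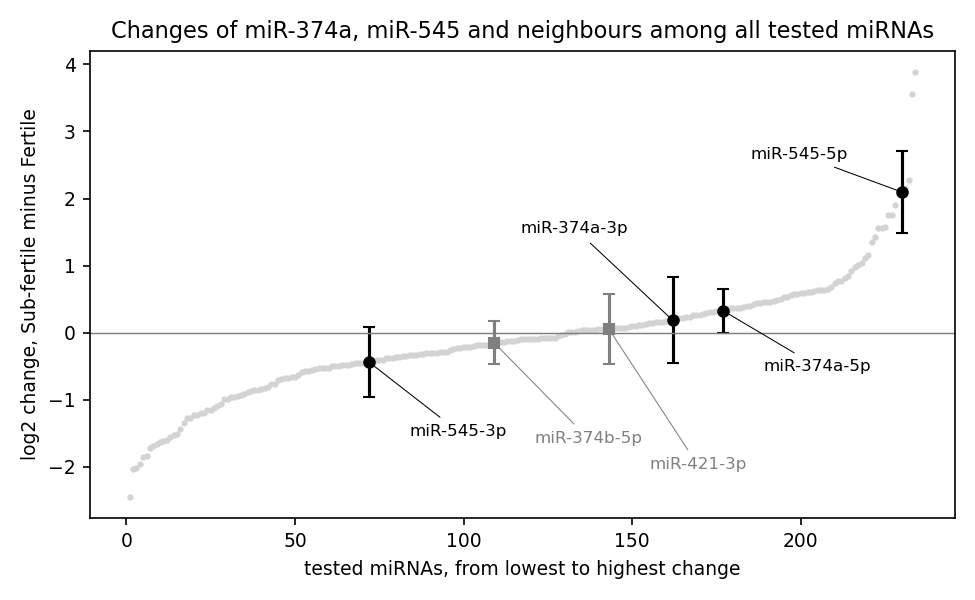
Log2 change, Sub-fertile minus Fertile, of all 234 tested miRNAs in order of size (grey dots), with the 4 strands of miR-374a and miR-545 (black circles) and the other tested strands of the neighbourhood (grey squares) marked with their standard errors. MiR-545-5p lies at 2.10 near the upper end, and the other 5 marked strands lie between -0.44 and 0.33.

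The sums of 2 marker lists, striated muscle and germ cell and testis, were set beside miR-545-5p because they did not overlap between the groups. Depth, which did overlap, was set beside it as well. The Sub-fertile group held the 2 shallowest libraries. The highest miR-545-5p level was in Sub-fertile replicate 3, with 636929 counts. Summed striated muscle markers, of which 2 of 4 were detected, ran from 11.6 to 60.0 in Fertile and from 181.1 to 268.0 in Sub-fertile libraries. Of the detected ones, miR-206-3p had a log2 change of 3.89 (SE 0.49). That of miR-1-3p was 0.68 (SE 1.20), within its error, so the muscle list did not clearly rise as a whole. Summed germ cell and testis markers ran from 9652 to 11674 and from 11866 to 22861, with the highest sum in Sub-fertile replicate 1. This list did not rise as a whole. Log2 changes were 2.06 for miR-34b-5p (SE 0.90), 1.57 for miR-34c-5p (SE 0.77) and 1.43 for miR-449a-5p (SE 0.58). Those of miR-506-3p, miR-507-3p and miR-508-3p were -0.69 (SE 0.35), -0.21 (SE 0.54) and 0.05 (SE 0.25). The sums of the other 3 lists overlapped between the groups. Leukocyte markers, with 5 of 5 detected, ran from 251.9 to 595.5 in Fertile and from 323.6 to 699.4 in Sub-fertile libraries. Epithelial markers ran from 87380 to 95147 and from 79742 to 124171, and erythroid ones, with 2 of 3 detected, from 12.0 to 37.1 and from 6.24 to 20.4. The part of depth and of these markers in the miR-545-5p result was not tested.

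Arm ratios could be compared in 57 hairpins with both arms tested. The log2 ratio of the 5p to the 3p arm in miR-545 went from -2.73 ± 1.01 in Fertile to -0.20 ± 0.85 in Sub-fertile (SD, n = 3 each), a change of 2.54 (SE 0.65). By size this was the second of the 57, after miR-34b with 2.92 (SE 0.48), and the median size over all hairpins was 0.51. In miR-374a the log2 ratio went from 3.77 ± 0.68 to 3.91 ± 0.30 (SD, n = 3 each), a change of 0.14 (SE 0.42). The groups did not overlap for 1 of these 2 hairpins, against 22.8% of all 57 in either direction and 14.0% with Sub-fertile above. Since the ratio of miR-545 holds the strand that drew attention to the cluster, its change is a description as well.

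**Figure D4:**
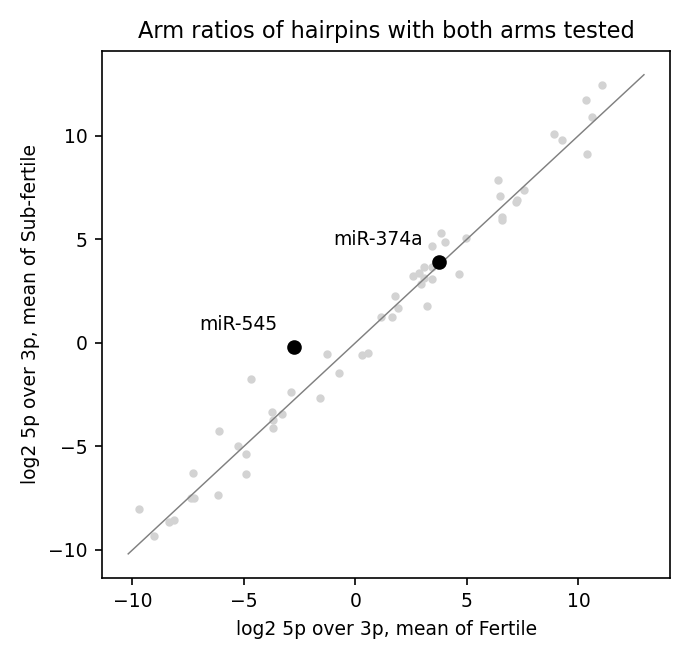
Mean log2 ratio of the 5p to the 3p arm in Fertile (x axis) and Sub-fertile (y axis) libraries for the 57 hairpins with both arms tested (grey), with miR-374a and miR-545 in black and the line of equal ratios. MiR-374a lies on the line, and miR-545 lies above it, at -2.73 and -0.20.

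For none of the 4 strands were the nearest profiles over the 6 libraries those of another strand of the cluster. Likeness was measured as the root mean square difference of log2 levels after each miRNA was centred on its own mean, among the 233 other tested miRNAs. The profiles nearest to miR-374a-5p were those of miR-324-5p (0.142), miR-508-3p (0.168) and miR-141-3p (0.172). Nearest to miR-374a-3p were miR-1911-3p (0.188), miR-574-5p (0.274) and miR-509c-3p (0.289), and nearest to miR-545-3p were miR-574-5p (0.184), miR-509a-5p (0.234) and miR-506-5p (0.255). MiR-545-5p had more distant neighbours by this measure. Its nearest profile was miR-146a-5p at 0.550, which is induced by inflammatory signalling and went from 92.3 ± 30.7 to 400.4 ± 54.6 (SD, n = 3 each), followed by miR-33a-5p (0.704) and miR-32-5p (0.738). Its own opposite arm, miR-545-3p, was at 1.48 and held place 168 of 233, and miR-374a-5p was at 1.08 in place 48. Between miR-374a-5p and miR-545-3p, the main strands of the hairpins, the difference was 0.548, place 100 from the side of miR-374a-5p and 63 from that of miR-545-3p. Some pairs of the neighbourhood were closer. From miR-374a-3p, miR-374b-5p was at 0.313 in place 8. From miR-545-3p, miR-374b-5p was at 0.395 in place 22 and miR-374a-3p at 0.437 in place 29. Distances of low miRNAs include counting error, which was larger for miR-545-5p than for miR-374a-5p. Centring over all 6 libraries also keeps the difference between the groups, on which the cluster was taken to have been selected. The near and far profiles of miR-545-5p follow in part from that difference and are a description only.

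All 4 strands are encoded on chromosome X, as were 48 of the 234 tested miRNAs. The other 44 X-linked miRNAs had a median log2 change of -0.31, against -0.10 over all tested, with 12 above 0 and 32 below. Of these 44, 0 passed in the upward direction and 1 in the downward direction, miR-676-3p (log2 change -1.52, SE 0.26; limma adjusted p = 0.018). The 4 strands had a median of 0.26, with 3 above 0 and 1 below. Of the 3 above, miR-374a-5p (0.33, SE 0.33) and miR-374a-3p (0.19, SE 0.64) lay within their standard errors of 0. So did the 1 below, miR-545-3p (-0.44, SE 0.52). The cluster was taken to have been selected on this contrast. Its median is therefore a description only and cannot be weighed against that of the X-linked miRNAs.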

How the data were processed

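Small RNA libraries came from a QIAseq miRNA kit and vesicle RNA, per the labels' protocols. The submitters' processing notes name bcl2fastq, Bowtie2 2.2.2, DESeq2 and the build OryCun2.0, with no role given. The authors deposited 1 signal per miRNA and library, named CPM. Its totals, 807952 to 1108265, are not those of plain CPM. Divided by the lowest nonzero value of its library, 100% of values came out whole (within 1e-06), so counts were recovered, and the implied factors (0.902 to 1.24) equal the TMM factors of edgeR. The sources used here do not say if the counts are reads or unique molecules, so intervals cover counting error only.

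The deposited signal was used as log2(value + 1) in limma 3.58.1 (R 4.3.3) with a mean-variance trend, on miRNAs with at least 10 in at least 3 libraries, with Benjamini-Hochberg adjustment. Within-library ratios were tested by exact sign-flip permutation (scipy 1.17.1). Poisson and Clopper-Pearson intervals are at 95%. The scripts were tested on simulated data. EdgeR 4.0.16 and DESeq2 1.42.0 on recovered counts were alternatives, beside pseudocounts 0.5 and 5, other filters and scalings, a replicate block and leaving out each library. The labels describe biological replicates without naming the animals. The miRNAs, the lists and the rules for naming (the 4 strands, other products of the host transcript, and the 3 nearest profiles of each strand) were chosen with earlier results of these data known. All 234 tested miRNAs matched a RefSeq hairpin by name. Planned descriptions by shared seed and base composition were not made, since mature sequences were not used here.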

Additional observations from a re-analysis of the deposited data

How the results depend on the processing

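The log2 change of miR-545-5p stayed above 0 in all 16 alternatives, from 1.69 to 2.38, and that of miR-374a-5p in all 16, from 0.06 to 0.55. Both extremes came from leaving out 1 library (without Fertile replicates 3 and 2 for miR-545-5p, without Sub-fertile replicates 3 and 1 for miR-374a-5p). That of miR-374a-3p ranged from -0.21 to 0.46 and that of miR-545-3p from -0.93 to 0.01. No sign turned under plain CPM, median-of-ratios, edgeR or DESeq2, and all 64 values moved by less than 1 SD between libraries. The change in the arm ratio of miR-545, whose alternatives were chosen after seeing the data, ranged from 1.95 to 2.85, and that of miR-374a from -0.19 to 0.48.

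The count of miRNAs past the threshold was 8, against 17 with DESeq2 and 1 with limma without a trend. With the replicate number as a block it was 0 (limma, 43 at an unadjusted p under 0.05), and leaving out 1 library gave 3 to 41. The deviations of libraries with the same number correlated at 0.05, -0.12 and 0.10, so the numbers were not taken to pair them. The block left the log2 change of miR-545-5p at 2.10 (SE 0.66). For these counts the cause was not tested.

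Without 1 library, the mean log2 ratios were 3.72 to 3.99 for the arms of miR-374a, -1.92 to -0.98 for the arms of miR-545, 3.17 to 3.82 for miR-374a-5p over miR-545-5p, and 0.96 to 1.19 for miR-374a-5p over miR-374b-5p. No exact test passes there, since 5 libraries cannot give a p under 0.0625. Without Sub-fertile replicate 1 the miR-545 ratio was below 0 in 5 of 5 libraries (exact permutation p = 0.0625). Pseudocounts 0.5 and 5 and recovered counts changed no call. Depth limits miR-545-5p and miR-374a-3p most, with as few as 2 counts in a library.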
